A study of Mus musculus with 2 samples.

Results

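Insulin RNA-richest beta cells were studied in mouse islets profiled by droplet single-cell RNA sequencing. They are the beta cells with the top 20% of insulin RNA share in their own library, and they numbered 1719 of 8598 beta cells and of 19721 cell barcodes in all. A beta cell was a barcode with at least 500 genes, at least 5000 UMIs (unique molecular identifiers, which tag single RNA molecules), at most 20% mitochondrial UMIs, at least 15% of UMIs from Ins1 and Ins2, and under 2% from each of Gcg, Sst and Ppy. The CDS library held 7268 barcodes, 3490 beta cells and 698 of the richest cells. The saline library held 12453 barcodes, 5108 beta cells and 1021 of the richest cells. The richest cells are set beside the bottom 20% of the same library, the insulin RNA-poorest cells, which numbered 698 in the CDS library and 1022 in the saline library.

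The labels call the donors of both libraries DIO mice. One group was given 10 mg/kg of an agent labelled CDS and the other saline, each for 2 weeks, before islets were freed with collagenase and picked under a microscope. The study's title speaks of blocking alpha2A-adrenergic receptors outside the brain, and nothing in the labels ties CDS to that blocker by name. Strain, sex, age and the number of mice behind each library are not stated in the labels. With a lone library per treatment no difference could be checked against replicates, no p-value is given, and the 95% intervals cover counting error only.

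Beta cells make preproinsulin, which enters the endoplasmic reticulum (ER), loses its signal peptide, folds, moves through the Golgi and is cut to insulin in dense granules. Insulin messenger RNA is very abundant in beta cells, and its supply depends on the transcription of Ins1 and Ins2, on export from the nucleus and on a long half-life. Beta cells of 1 islet differ in their insulin RNA, in maturity and in secretory stress. Islet amyloid polypeptide, encoded by Iapp, is stored and released with insulin. Ins1 is a retrocopy of Ins2, and the coding parts of these mouse genes are near-identical, so the counting could have split their reads wrongly. Their sum is safer than either alone.

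The promoters of Ins1 and Iapp are printed because these genes share regulators and their RNA moved together across the beta cells described here. Each window runs from 250 bases before the gene start to 50 after it, from RefSeq on GRCm38.p6 (mm10). Capitals mark CATCTG, an E box of the insulin type, and TAAT, a core bound by homeodomain factors, on either strand (CAGATG and ATTA on the other). Ins1 lies on the plus strand at chr19:52264047-52264346 and Iapp on the plus strand at chr6:142298175-142298474.
Ins1: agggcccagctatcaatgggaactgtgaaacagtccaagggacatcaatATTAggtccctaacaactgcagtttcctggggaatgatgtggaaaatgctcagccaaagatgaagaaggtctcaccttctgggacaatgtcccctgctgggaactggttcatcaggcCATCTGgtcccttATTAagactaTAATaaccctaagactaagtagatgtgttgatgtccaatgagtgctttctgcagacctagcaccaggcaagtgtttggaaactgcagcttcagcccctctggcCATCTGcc
Iapp: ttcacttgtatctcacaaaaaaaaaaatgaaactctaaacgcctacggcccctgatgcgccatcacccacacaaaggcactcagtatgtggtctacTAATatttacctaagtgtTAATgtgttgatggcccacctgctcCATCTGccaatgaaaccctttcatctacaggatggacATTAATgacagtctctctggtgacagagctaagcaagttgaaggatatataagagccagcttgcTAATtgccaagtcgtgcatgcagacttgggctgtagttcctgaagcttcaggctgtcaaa
The Ins1 window held 2 matches to CATCTG and 3 to TAAT, and the Iapp window held 1 and 5. Of 32851 mouse promoters of this length, 17.2% held CATCTG and 58% held TAAT, so neither match is rare. Creld2 and Hspa5, both coding for ER proteins, are printed next. They share the ER stress element, CCAAT and CCACG with 9 free bases between them, marked in capitals on either strand together with any TAAT. In the richest cells Creld2 RNA was above that of the poorest in both libraries, and Hspa5 RNA in the saline library only. Creld2 lies at chr15:88819396-88819695 and Hspa5 at chr2:34771840-34772139, both on the plus strand.
Creld2: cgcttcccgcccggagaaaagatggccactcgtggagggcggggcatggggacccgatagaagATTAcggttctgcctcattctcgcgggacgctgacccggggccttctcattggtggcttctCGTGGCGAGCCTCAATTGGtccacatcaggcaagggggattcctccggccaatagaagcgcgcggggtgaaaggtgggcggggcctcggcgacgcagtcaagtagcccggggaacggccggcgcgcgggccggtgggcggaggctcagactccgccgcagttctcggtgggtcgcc
Hspa5: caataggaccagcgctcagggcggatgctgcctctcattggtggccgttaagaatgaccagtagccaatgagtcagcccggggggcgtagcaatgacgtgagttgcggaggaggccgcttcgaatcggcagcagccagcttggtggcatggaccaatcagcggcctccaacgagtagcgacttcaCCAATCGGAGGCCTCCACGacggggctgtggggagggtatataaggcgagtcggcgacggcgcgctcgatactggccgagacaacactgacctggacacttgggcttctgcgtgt
The element was found in 39 of the promoters, or 0.119%. A match is a description of letters and no evidence of binding.

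The share of insulin RNA chose the cells and is given here as a description. It had a median of 51.4% of UMIs in the richest cells of the CDS library and 25.8% in its poorest cells. In the saline library the medians were 43.5% in the richest and 24.6% in the poorest cells. The distribution had no gap at the limit, since the lowest member and the highest non-member had 47.4422% and 47.4368% in the CDS library and 40.392% and 40.3844% in the saline library. The highest member reached 81.3% in the CDS library and 84.9% in the saline library. The limits differ between libraries, and 49% of the CDS beta cells (95% exact binomial interval 47.3 to 50.7) lay at or above the limit of the saline library. Conversely, 4.31% of saline beta cells (3.77 to 4.90) reached the limit of the CDS library. Being among the richest is thus a rank within a library and not one level of insulin RNA.

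**Figure D1:**
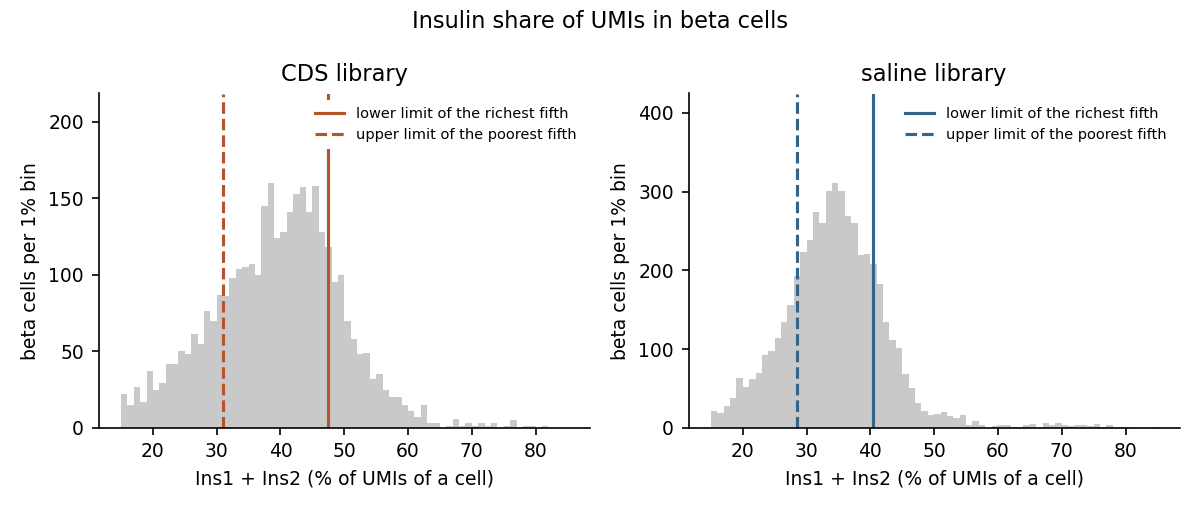
Beta cells per 1% bin of the share of UMIs from Ins1 and Ins2 (horizontal axis, %), in the CDS library (left) and the saline library (right). Solid lines mark the lowest member of the richest cells, at 47.4% (CDS) and 40.4% (saline), and dashed lines the highest of the poorest cells, at 31.0% and 28.5%; both distributions have a single main body with a thin tail above 60%.

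Label and depth were checked first. The gene, UMI and mitochondrial limits were passed by 5675 CDS and 7725 saline barcodes, and the values here are from these. Iapp, the beta cell marker outside the rule, stood at 104684 CPM in all CDS beta cells and 21108 CPM in the other CDS barcodes. In the saline library it stood at 70377 CPM in all beta cells and 14138 CPM in the other barcodes. The cells chosen by the rule were thus rich in it, while each library also held barcodes outside the labelled cell type. Barcodes past those limits with at least 3 UMIs of Ptprc, a leukocyte gene, had a median insulin share of 1.79% in the CDS library and 1.71% in the saline library, which is under the 15% limit. Even so, 15 of 133 such CDS barcodes and 65 of 335 such saline barcodes reached 15% and counted among the beta cells. Of all barcodes, the libraries shared 25 sequences, of which 1 was a beta cell in both and 0 were among the richest cells. The richest cells held a median of 34123 UMIs in the CDS library, against 21919 in the poorest, and of 17366 in the saline library, against 14346.5. UMIs other than insulin ran the other way, with medians of 16101.5 in the richest and 16454 in the poorest CDS cells, and of 9723 in the richest and 10800 in the poorest saline cells. Genes per cell at a fixed depth of 2000 non-insulin UMIs were 1195 in the richest and 1289 in the poorest CDS cells, and 1298 and 1343 in the richest and poorest saline cells; 2 CDS and 6 saline richest cells were too shallow to count. Without thinning, the richest and poorest cells had medians of 4813 and 5086 genes in the CDS library and 3948 and 4257 in the saline library. Mitochondrial RNA took 2.25% of non-insulin UMIs in the richest and 2.38% in the poorest CDS cells, and 3.80% and 3.66% in the richest and poorest saline cells.

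Both insulin genes contributed to the high share. As CPM (the UMIs of a gene divided by the UMIs of all genes but Ins1 and Ins2, scaled to 1000000), Ins1 stood at 328422 in the richest and 97496 in the poorest CDS cells, and at 229591 in the richest and 84628 in the poorest saline cells. Ins2 stood at 786424 in the richest and 244003 in the poorest CDS cells, and at 597072 and 232166 in the richest and poorest saline cells. Ins1 made up 29.46% of insulin UMIs in the richest and 28.55% in the poorest CDS cells, and 27.77% and 26.71% in the richest and poorest saline cells, a mean difference of 0.984 percentage points. The share of Ins1 did not run steadily with rank: against the middle 20% of cells the difference was -0.518 points, and it was -0.115 points when beta cells had to hold 25% insulin. Single cells scattered more in the poorest group. The interquartile range ran from 27.5% to 32.3% Ins1 in the richest and from 20.6% to 35.2% in the poorest CDS cells, and from 26.1% to 29.9% in the richest and from 23% to 30.2% in the poorest saline cells. The depth of insulin UMIs per cell also differed, with medians of 17802 in the richest and 5656.5 in the poorest CDS cells and of 7719 and 3451.5 in the richest and poorest saline cells, and its part in the scatter was not tested.

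Other genes were compared as the same CPM in the summed cells of each group. A gene counted as higher where the richest cells were at least 25% above the poorest in both libraries and as lower where they were at least 20% below in both. Among 9460 genes with at least 10 CPM on average and 100 UMIs, 417 were higher, or 4.41%, and 1550 were lower, or 16.4%. The CDS library alone put 7.12% of genes higher and 35.6% lower, and the saline library alone 7.79% and 19.7%. The median log2 ratio of all genes was -0.19 in the CDS library and -0.084 in the saline library, and list medians below are to be read against these. List counts below are to be read against the 4.41% higher and 16.4% lower. The split depends on the scaling. TMM factors gave 1279 higher and 589 lower genes, median-of-ratios factors gave 1360 and 566, and CPM over all UMIs gave 5 and 6377 with the median of all genes shifted by -0.56. The 5 genes higher even as a share of all RNA were Dapl1, Trpm5, Cib3, Gm10941 and Ssr4, where Cib3 and Gm10941 are named after their values were seen. Of the 9460 genes, 7701 had the same sign in both libraries and 11 passed the limits in opposite directions.

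**Figure D2:**
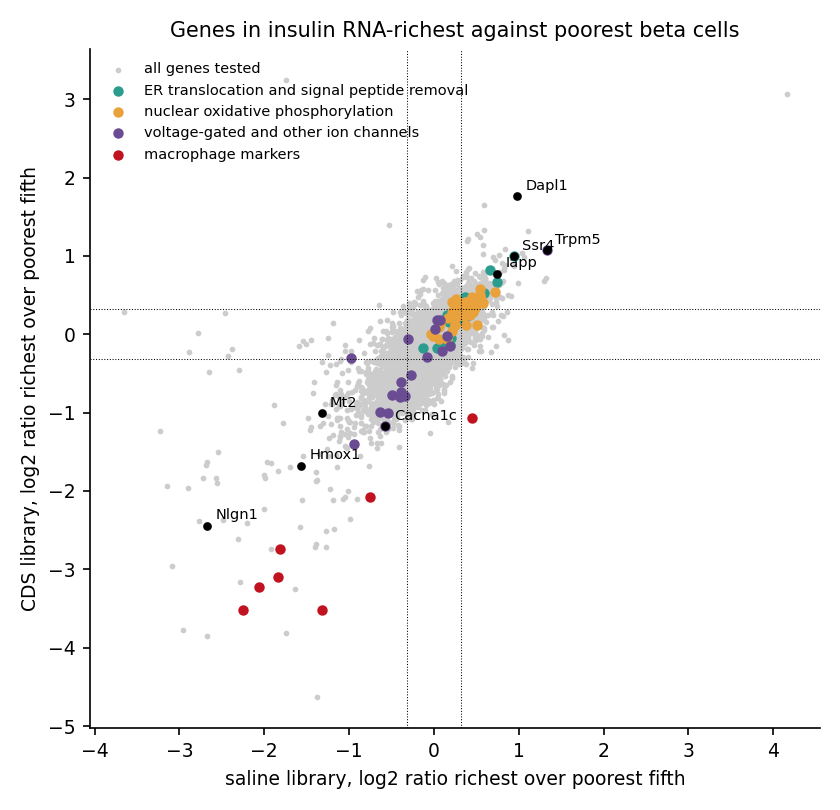
Each point is 1 of 9460 genes, with its log2 ratio of richest over poorest beta cells in the CDS library (vertical axis) and the saline library (horizontal axis); dotted lines mark the limits for lower and higher. Genes of ER translocation and oxidative phosphorylation lie to the upper right, ion channels and macrophage markers to the lower left, and Dnah12, named outside the rule, is the point at 3.07 (CDS) and 4.16 (saline).

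Iapp, which the rule did not use, followed insulin. It stood at 128224 CPM in the richest CDS cells and 88949 CPM in the richest saline cells, against 74984 CPM in the poorest CDS cells and 53168 CPM in the poorest saline cells. The log2 ratio was 0.77 in the CDS library and 0.74 in the saline library, and Iapp was higher at every step over 5 groups of rising insulin share in both. Thus Iapp was 1.71-fold (95% interval 1.71 to 1.71) higher in the CDS library and 1.67-fold (1.67 to 1.68) higher in the saline library. Ins1 was 3.37-fold and 2.71-fold higher, but it is part of the share that ranked the cells. The sizes of the Iapp and Ins1 ratios are thus not comparable. Of all RNA, insulin included, Iapp was still higher, by 0.12 on the log2 scale in the CDS library and 0.27 in the saline library.

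Granule cargo genes were more often higher than lower, beside 4.41% higher and 16.4% lower among all genes. Of 15 measured genes of the granule cargo list, 7 were higher and 1 was lower, and the list's median log2 ratio was 0.30 in the CDS library and 0.51 in the saline library, or -0.37 and 0.071 over all UMIs. Ucn3, the peptide urocortin 3 of mature beta cells, stood at 107 CPM in the richest and 52.7 CPM in the poorest CDS cells, and at 146 and 97.7 CPM in the richest and poorest saline cells. Ttr, transthyretin, stood at 1935 and 1120 CPM in the richest and poorest CDS cells, and at 1547 and 905 CPM in the richest and poorest saline cells. The others higher were Pcsk1n, an inhibitor of a prohormone convertase, Scg2, Scg5 and Resp18, with log2 ratios from 0.41 to 0.65 in the CDS library and from 0.58 to 0.79 in the saline library. Chromogranin A did not move alike in both libraries, with Chga at 5671 CPM in the richest and 5788 CPM in the poorest CDS cells but 6544 and 5153 CPM in the richest and poorest saline cells. Pyy, a peptide also used as a PP cell marker, was the gene that was lower, with log2 ratios of -1.76 in the CDS library and -1.38 in the saline library. With doublets, cells carrying other-type markers and cells with other hormones left out, these became -0.82 in the CDS library and -0.051 in the saline library.

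Genes for cutting prohormones had counts near the 4.41% of all genes that were higher. In the list of prohormone processing and granule membrane genes, 1 of 17 was higher (Cd63) and 1 was lower (Ptprn2). Pcsk1, a prohormone convertase, stood at 253 CPM in the richest and 238 CPM in the poorest CDS cells, and at 438 and 350 CPM in the richest and poorest saline cells. Pcsk2, the other convertase, stood at 3271 and 3683 CPM in the richest and poorest CDS cells, and at 4607 and 4297 CPM in the richest and poorest saline cells. Cpe, the carboxypeptidase that trims the cut ends, had log2 ratios of 0.17 in the CDS library and 0.26 in the saline library, and Slc30a8, the granule zinc transporter, had 0.03 and 0.37.

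Genes for entry into the ER were often higher, beside 4.41% higher and 16.4% lower among all genes. Of 23 genes of ER translocation and signal peptide removal, 9 were higher and 0 lower, and their median log2 ratio was 0.24 in the CDS library and 0.32 in the saline library. Ssr4, a subunit of the translocon-associated complex that helps preproinsulin through the membrane, stood at 1368 CPM in the richest and 683 CPM in the poorest CDS cells, and at 791 and 412 CPM in the richest and poorest saline cells. Its ratio was 2.00 (1.95 to 2.06) in the CDS library and 1.92 (1.85 to 1.99) in the saline library, and it rose at every step over the 5 groups. Sec11c, a catalytic subunit of the signal peptidase, stood at 716 and 404 CPM in the richest and poorest CDS cells, and at 473 and 299 CPM in the richest and poorest saline cells. Spcs1 and Spcs2, accessory subunits of the same enzyme, had log2 ratios of 0.67 and 0.43 in the CDS library and of 0.75 and 0.51 in the saline library. Sec61b, a small subunit of the channel, had 0.53 in the CDS library and 0.59 in the saline library, while Sec61a1, which forms the pore, had -0.13 and 0.09. The remaining members that were higher were Srp14 and Srp9 of the signal recognition particle, Sec62 and Ssr2. The count was 8 of 23 after adjustment for gene span, 16 with TMM factors, and 2 when the richest were set against the middle 20% of cells. Among all genes tested these settings gave 414, 1279 and 67 higher.

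The ER folding list was mixed, and its abundant chaperones stayed inside the limits. Of 30 genes, 7 were higher and 1 was lower, beside 4.41% and 16.4% of all genes. The median log2 ratios were 0.11 in the CDS library and 0.24 in the saline library. Sdf2l1, part of an ER chaperone complex, stood at 155 CPM in the richest and 80.2 CPM in the poorest CDS cells, and at 107 and 64.8 CPM in the richest and poorest saline cells. Manf, a secreted ER stress protein, stood at 704 and 463 CPM in the richest and poorest CDS cells, and at 513 and 333 CPM in the richest and poorest saline cells. Creld2, whose promoter is printed above, stood at 104 and 69.9 CPM in the richest and poorest CDS cells, and at 108 and 84.4 CPM in the richest and poorest saline cells. Hspa5, the chaperone BiP, stood at 1370 and 1402 CPM in the richest and poorest CDS cells, and at 1900 and 1583 CPM in the richest and poorest saline cells. Hsp90b1, Calr, Xbp1 and Pdia4 likewise passed neither limit. Ero1l, an oxidase also induced by low oxygen, was the gene that was lower, with log2 ratios of -0.81 in the CDS library and -0.39 in the saline library. The ER stress element was found in 2 of 6 higher members with a RefSeq promoter (Pdia6 and Creld2) and in 6 of 18 members that passed neither limit, Hspa5 included, so the letters did not separate them.

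Transport out of the ER had median log2 ratios of 0.16 in the CDS library and 0.23 in the saline library. Beside 4.41% higher and 16.4% lower among all genes, 0 of its 27 genes were lower and 4 were higher. They were Tmed3 and Tmed9, cargo receptors of transport vesicles, Sar1b, the GTPase that starts the COPII coat, and Cope of the COPI coat. Tmed3 stood at 649 and 418 CPM in the richest and poorest CDS cells, and at 513 and 359 CPM in the richest and poorest saline cells. With CPM over all UMIs the medians of this list and of the ER translocation and ER folding lists fell below 0 in both libraries, so these gains are relative to the other non-insulin RNA.

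**Figure D3:**
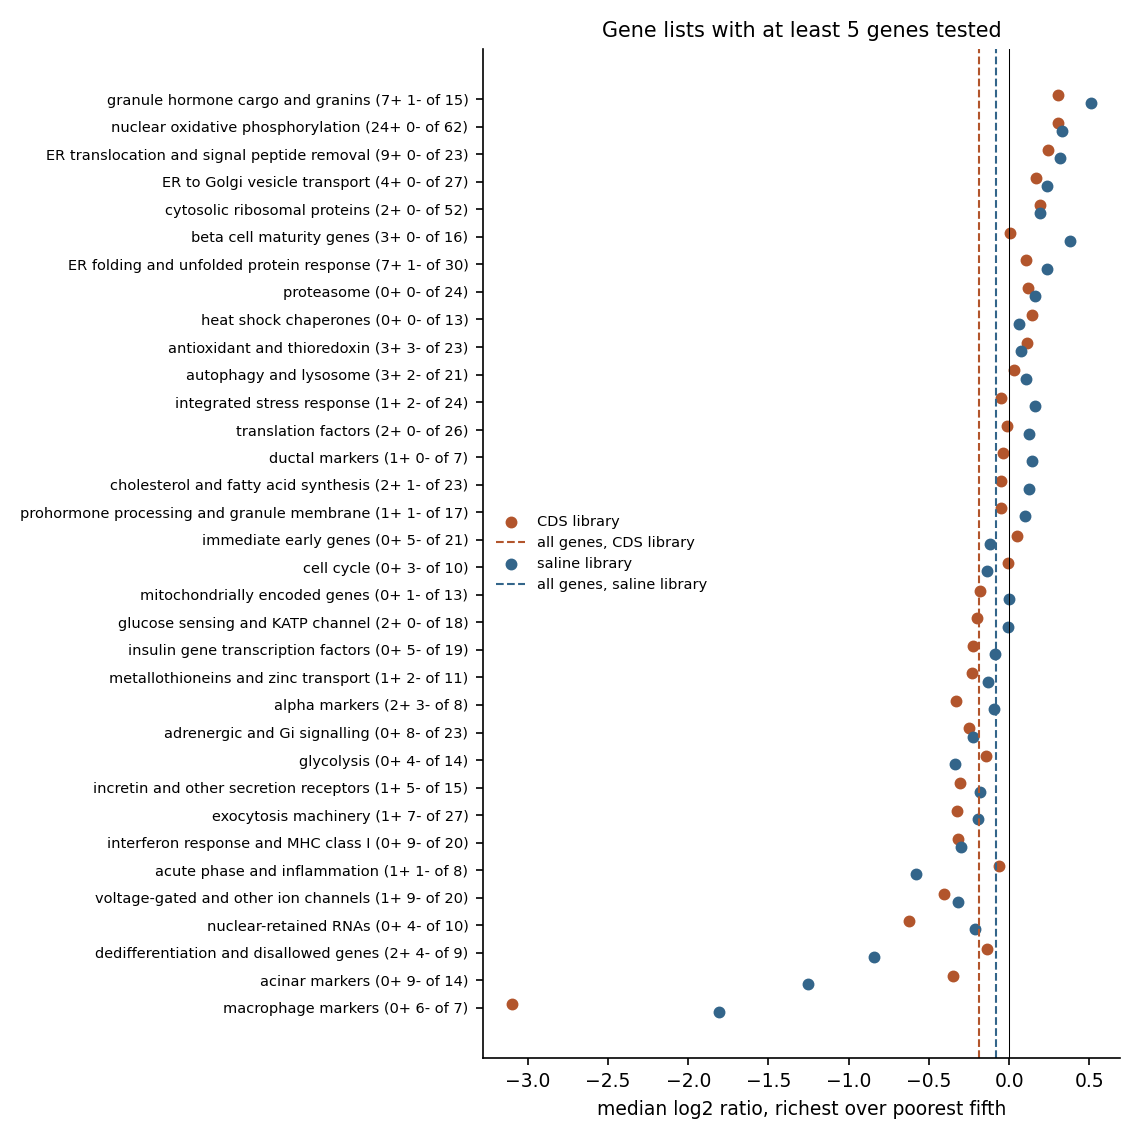
Median log2 ratio of richest over poorest beta cells for each gene list with at least 5 genes tested (horizontal axis), in the CDS library (brown, upper point) and the saline library (blue, lower point), with dashed lines at the medians of all genes, -0.19 and -0.084. The numbers in the labels are genes higher and lower in both libraries; granule cargo, oxidative phosphorylation and ER translocation lie furthest to the right, and macrophage and acinar markers furthest to the left.

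Among single genes, the 12 furthest up by the naming rule were Dapl1, Trpm5, Cox6a2, Ssr4, Gm27168, Copz2, 2410021H03Rik, Serpina7, Fkbp11, Sdf2l1, Ppp1r1a and Vkorc1. Dapl1, named for likeness to a death-associated protein, stood at 98.1 CPM in the richest and 29.0 CPM in the poorest CDS cells, and at 52.3 and 26.6 CPM in the richest and poorest saline cells. Its ratio was 3.39 (3 to 3.83) in the CDS library and 1.97 (1.71 to 2.27) in the saline library. Its UMIs were unevenly spread, since 72 of 698 CDS and 67 of 1021 saline richest cells held 50% of them. Trpm5, a cation channel opened by calcium that takes part in glucose-stimulated secretion, stood at 39.6 and 18.8 CPM in the richest and poorest CDS cells, and at 42.5 and 16.8 CPM in the richest and poorest saline cells. It rose at every step over the 5 groups in both libraries, with ratios of 2.11 (1.79 to 2.48) in the CDS library and 2.52 (2.13 to 3) in the saline library.

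Several of the 12 act in the ER or in vesicle coats. Fkbp11, a prolyl isomerase of secretory cells, stood at 194 and 98.1 CPM in the richest and poorest CDS cells, and at 137 and 84.8 CPM in the richest and poorest saline cells. Vkorc1, the ER enzyme that recycles vitamin K, stood at 239 and 136 CPM in the richest and poorest CDS cells, and at 161 and 91.2 CPM in the richest and poorest saline cells. Copz2, a COPI coat subunit, had log2 ratios of 1.01 in the CDS library and 0.77 in the saline library. Cox6a2, a subunit of cytochrome c oxidase, had 0.68 and 1.3, but against the middle 20% of cells only 0.021 in the CDS library. Ppp1r1a, an inhibitor of protein phosphatase 1, had 0.65 and 0.99. Serpina7, a thyroid hormone carrier, had 1.13 and 0.58, and its saline value turned to -0.14 against the middle 20%. The gene 2410021H03Rik has no role stated here. The use of strand in counting is not given, and any part of an overlapping gene in its counts was not tested.

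Regulators of the insulin gene were read beside all genes, of which 4.41% were higher and 16.4% lower. Of 19 transcription factors tested, 0 were higher and 5 lower (Glis3, Esrrg, Hnf4a, Foxo1 and Rfx6), with median log2 ratios of -0.22 in the CDS library and -0.090 in the saline library, close to those of all genes, and with TMM factors -0.021 and 0.057. Pdx1, a direct activator of Ins1, Ins2 and Iapp, stood at 95.4 CPM in the richest and 94.9 CPM in the poorest CDS cells, and at 106 and 84.6 CPM in the richest and poorest saline cells. Mafa, the activator tied to mature beta cells, ran in opposite directions, at 179 and 209 CPM in the richest and poorest CDS cells and at 304 and 191 CPM in the richest and poorest saline cells. Neurod1, which binds the E box with its partner, stood at 273 and 332 CPM in the richest and poorest CDS cells, and at 288 and 290 CPM in the richest and poorest saline cells. Nkx6-1 had log2 ratios of 0.09 in the CDS library and 0.38 in the saline library. Glis3, an activator of insulin transcription, stood at 120 and 212 CPM in the richest and poorest CDS cells, and at 291 and 434 CPM in the richest and poorest saline cells, and fell at every step over the 5 groups. Glis3 has a very long span, and after adjustment for span its log2 ratios were -0.068 in the CDS library and -0.13 in the saline library.

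Counts of maturity and glucose sensing genes are read beside 4.41% higher and 16.4% lower among all genes. Maturity genes differed between libraries. Of 16 tested, 3 were higher (Trpm5, Ppp1r1a and Ucn3) and 0 lower, with median log2 ratios of 0.0062 in the CDS library and 0.38 in the saline library, or -0.65 and -0.096 over all UMIs. Slc2a2, the glucose transporter GLUT2, stood at 130 and 144 CPM in the richest and poorest CDS cells, against 248 and 150 CPM in the richest and poorest saline cells. In the glucose sensing list, 2 of 18 genes were higher and 0 lower. Those were Mdh1, a malate dehydrogenase, and Mpc1, a subunit of the mitochondrial pyruvate carrier, while the KATP channel genes Abcc8 and Kcnj11 had log2 ratios of -0.27 and -0.24 in the CDS library and -0.16 and -0.06 in the saline library.

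**Figure D4:**
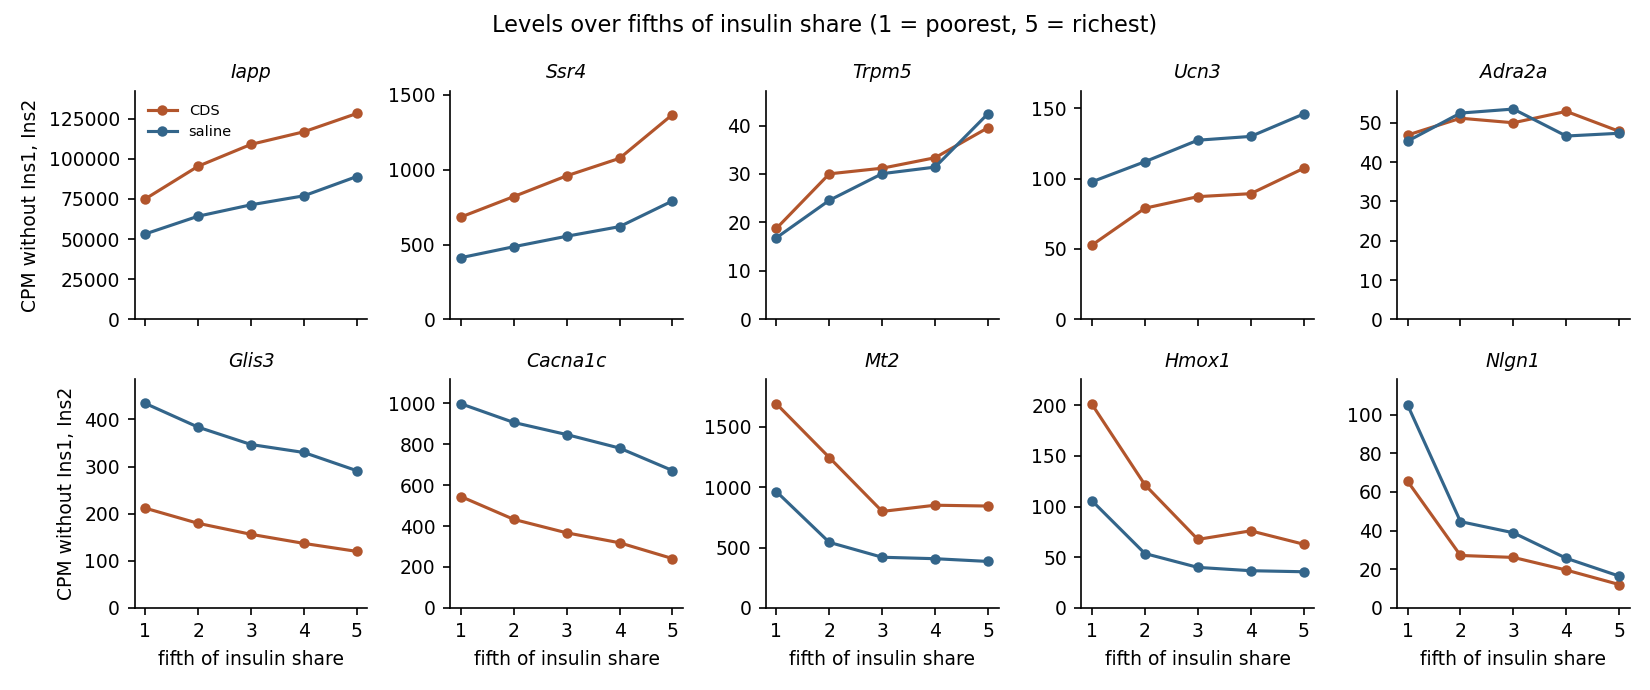
CPM without Ins1 and Ins2 (vertical axes, from 0) of 10 genes in 5 groups of beta cells ordered by insulin share from poorest (1) to richest (5), in the CDS library (brown) and the saline library (blue). Iapp, Ssr4, Trpm5 and Ucn3 climb at every step, Glis3, Cacna1c and Nlgn1 fall at every step, Adra2a stays between 45.3 and 53.5 CPM, and Mt2 and Hmox1 are high in the poorest groups and nearly level from the middle group on.

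Nuclear genes of oxidative phosphorylation were often higher, beside 4.41% higher and 16.4% lower among all genes. Of 62 genes, 24 were higher and 0 lower, with median log2 ratios of 0.31 in the CDS library and 0.33 in the saline library. Summed over the list they stood at 22163 CPM in the richest and 17591 CPM in the poorest CDS cells, and at 13172 and 10294 CPM in the richest and poorest saline cells. Ndufa1, a small complex I subunit, stood at 362 and 248 CPM in the richest and poorest CDS cells, and at 190 and 116 CPM in the richest and poorest saline cells. The genes encoded in mitochondria did not share this, with 0 of 13 higher and 1 lower (mt-Nd6) and median log2 ratios of -0.18 and -0.0015. Genes for cytosolic ribosomal proteins had medians of 0.19 in both libraries, with 2 of 52 past the limit (Rplp0 and Rpl15), or 30 with TMM factors. The span-adjusted counts were 9 of 62 for oxidative phosphorylation and 1 of 52 for ribosomal proteins, beside 414 of all 9460 genes. With CPM over all UMIs the medians of both lists were below 0 in both libraries.

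Genes of excitability and release are given next, beside the 16.4% of all genes that were lower. Of 20 ion channel genes, 1 was higher (Trpm5) and 9 were lower, with median log2 ratios of -0.41 in the CDS library and -0.32 in the saline library. Cacna1c, a pore subunit of the L-type calcium channel, stood at 241 and 545 CPM in the richest and poorest CDS cells, and at 672 and 999 CPM in the richest and poorest saline cells. Itpr1, a calcium release channel of the ER, stood at 27.3 and 72.0 CPM in the richest and poorest CDS cells, and at 51.5 and 98.6 CPM in the richest and poorest saline cells. Of 27 exocytosis genes, 1 was higher, Rab3a of the granule surface, and 7 were lower, among them the scaffold Rims2 and the priming factors Unc13a, Unc13b and Cadps2. Of 15 receptor genes, 1 was higher (P2ry1, a nucleotide receptor) and 5 were lower, including Insr, Igf1r and the muscarinic receptor Chrm3.

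In the adrenergic and Gi list, 0 of 23 genes were higher and 8 were lower, beside 4.41% and 16.4% of all genes. The adjustment for gene span given below left 0 past either limit. The list's median log2 ratios were -0.25 in the CDS library and -0.23 in the saline library. Adra2a, which codes for the receptor in the series title, stayed inside the limits. It stood at 47.8 CPM in the richest CDS cells and 47.3 CPM in the richest saline cells, against 46.9 CPM in the poorest CDS cells and 45.3 CPM in the poorest saline cells. Its ratio was 1.02 (0.905 to 1.15) in the CDS library and 1.04 (0.922 to 1.18) in the saline library. The scaling sets its direction, with log2 ratios of 0.23 and 0.21 in the CDS and saline libraries with TMM factors and of -0.63 and -0.41 over all UMIs. Gnai1, an inhibitory G protein subunit, stood at 23 and 35 CPM in the richest and poorest CDS cells, and at 18.9 and 38.2 CPM in the richest and poorest saline cells. Gnas, the stimulatory subunit, stood at 1038 and 1030 CPM in the richest and poorest CDS cells, and at 1036 and 1038 CPM in the richest and poorest saline cells. The phosphodiesterases Pde1c and Pde10a, which break down cyclic nucleotides, had log2 ratios of -1.39 and -0.97 in the CDS library and of -0.63 and -0.70 in the saline library.

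The length of the gene on the chromosome moved with many of these ratios. Across the 9460 genes, Spearman's rho between annotated span and log2 ratio was -0.622 in the CDS library and -0.563 in the saline library, as a description, since genes of a library share its cells. The shortest 1892 genes, with a median span of 4.88 kb, had median log2 ratios of 0.13 in the CDS library and 0.15 in the saline library, with 269 genes higher and 79 lower. The longest 1892, with a median of 143 kb, had -0.54 and -0.32, with 4 higher and 882 lower. After adjustment by a running median over span, a step added after seeing the data, the ion channel list had 1 gene higher and 1 lower, the exocytosis list 1 and 1, the receptor list 1 and 0, and the adrenergic list 0 and 0. ER translocation kept medians of 0.30 in the CDS library and 0.29 in the saline library, Iapp log2 ratios of 0.70 and 0.63, and Trpm5 of 1.248 and 1.39. Long RNAs that stay in the nucleus moved the same way, with 4 of 10 lower and 0 higher, beside 16.4% and 4.41% of all genes. Malat1 stood at 11040 and 16296 CPM in the richest and poorest CDS cells, and at 13524 and 17734 CPM in the richest and poorest saline cells. Kcnq1ot1 and Airn, also lower, overlap other genes on the opposite strand, and the use of strand in counting is not given. Any part of those genes in their counts was not tested. The sources used here do not say whether intron reads were counted, and the part of unspliced RNA in these ratios was not tested.

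**Figure D5:**
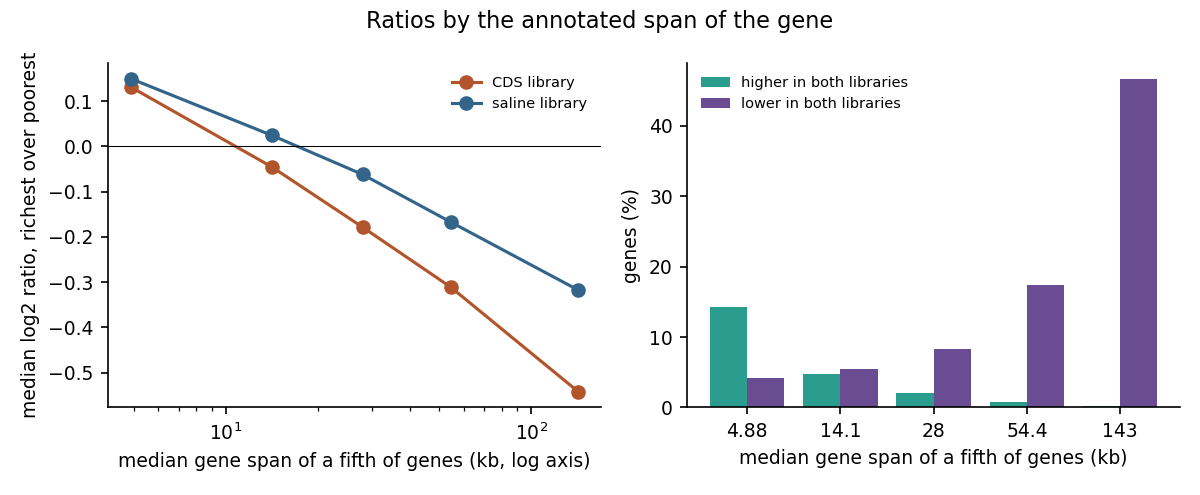
Left, median log2 ratio of richest over poorest beta cells (vertical axis) for 5 equal groups of genes by annotated span (horizontal log axis, kb), in the CDS library (brown) and the saline library (blue). Right, percent of genes higher (green) and lower (purple) in both libraries in the same groups, from 14.2% higher and 4.18% lower in the shortest to 0.211% higher and 46.6% lower in the longest.

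The genes furthest down, by the same rule, were Nrg1, Slpi, Nlgn1, Unc5c, Ctla2a, Pak7, Fabp4, Apoe, Ifitm3, Asic2, Hmox1 and Dgkb. Nrg1, a growth factor ligand of ErbB receptors, stood at 5.11 and 39.7 CPM in the richest and poorest CDS cells, and at 11.5 and 98.1 CPM in the richest and poorest saline cells. Nlgn1, a cell adhesion protein of the neuroligin family, stood at 12.1 and 65.6 CPM in the richest and poorest CDS cells, and at 16.4 and 105 CPM in the richest and poorest saline cells. With doublets, cells carrying other-type markers and cells with other hormones left out, the log2 ratios of Nrg1 were -2.23 in the CDS library and -2.12 in the saline library, and those of Nlgn1 were -2.17 and -2.45. Unc5c, a netrin receptor, had -1.80 and -1.73 after the same exclusion, Pak7 -1.92 and -2.52, Asic2, an acid-sensing channel, -1.14 and -1.22, and Dgkb, a diacylglycerol kinase, -1.72 and -0.81. These neuronal-type genes thus kept their direction without those cells, but the ratios grew smaller in size, apart from Pak7 in the CDS library. With all cells kept, Unc5c had -2.40 in the CDS library and -2.20 in the saline library, Asic2 -1.69 and -1.70, and Dgkb -1.98 and -1.23. Adjusted by gene span instead, they also kept their direction, with Asic2 at -0.92 and -1.25 and Dgkb at -1.21 and -0.77.

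Several other low genes moved with cells that carry markers of other cell types, and Hmox1 did not. Scrublet called 9 of the richest CDS cells doublets (1.29%) and 35 of the poorest (5.01%), and 20 of the richest saline cells (1.96%) and 135 of the poorest (13.2%). Cells with over 5 UMIs per 10000 from endothelial and immune or stromal markers numbered 5 of the richest and 26 of the poorest CDS cells, and 47 and 148 of the richest and poorest saline cells. Hmox1 had log2 ratios of -1.54 in the CDS library and -1.51 in the saline library with these marker-carrying cells left out. Apoe stood at 49.9 and 326 CPM in the richest and poorest CDS cells, and at 40.7 and 107 CPM in the richest and poorest saline cells, and its log2 ratios were 0.30 in the CDS library and 0.64 in the saline library with them left out. With the same cells left out, Ctla2a had 0.65 in the CDS library and 0.125 in the saline library, Ifitm3 had 0.024 and -0.074, and Fabp4 had 0.76 and -0.38. Slpi, a protease inhibitor gene, had 2 UMIs in the richest and 53 UMIs in the poorest CDS cells, and 248 and 747 UMIs in the richest and poorest saline cells, and in the poorest cells of each library 1 cell held 50% of them. Without marker-carrying cells its log2 ratios were -4.59 in the CDS library and 0.48 in the saline library.

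Whole marker lists differed among themselves, and their counts stand beside 4.41% higher and 16.4% lower among all genes. Of 7 macrophage markers tested, 6 were lower, and the list of 14 summed to 82.9 CPM in the richest and 447 CPM in the poorest CDS cells, and to 64.1 and 125 CPM in the richest and poorest saline cells. Among the poorest cells, 50% of the UMIs of Lyz2 were held by 3 CDS cells and 1 saline cell. For C1qb these numbers were 4 and 3, and for Fcer1g 5 and 4. Of 14 acinar markers, 9 were lower, and the list summed to 667 and 792 CPM in the richest and poorest CDS cells, and to 404 and 1585 CPM in the richest and poorest saline cells, with Amy2a1 at 0 throughout. In the saline library 1 of the 1022 poorest cells held 50% of the UMIs of Prss2 and 1 held 50% of those of Reg1. The 14 endothelial markers summed to 65.5 and 135 CPM in the richest and poorest CDS cells, and to 51.1 and 149 CPM in the richest and poorest saline cells. For Esm1, 4 of the poorest CDS cells and 5 of the poorest saline cells held 50% of the UMIs. Gcg, Sst and Ppy were part of the rule, each under 2%, so their levels are a description. Both delta markers tested, Sst and Rbp4, and 2 of 3 PP markers, Ppy and Pyy, were lower. With the rule tightened to 0.5%, Sst had log2 ratios of 0.31 in the CDS library and -0.081 in the saline library, and Ppy had 0.30 and 0.045. At the rule's own limit, the delta list summed to 288 and 1022 CPM in the richest and poorest CDS cells, and to 251 and 938 CPM in the richest and poorest saline cells, and the PP list to 1737 and 4277 CPM in the richest and poorest CDS cells, and to 1214 and 2506 CPM in the richest and poorest saline cells. Of 8 alpha markers, 3 were lower, Smarca1 and Gcg among them, and 2 higher (Ttr and Gc, which beta cells also express), and the list summed to 3659 and 3240 CPM in the richest and poorest CDS cells, and to 3222 and 2870 CPM in the richest and poorest saline cells. B and plasma cell markers summed to 22 and 21.6 CPM in the richest and poorest CDS cells, and to 237 and 1280 CPM in the richest and poorest saline cells. In the poorest saline cells Ighm had 2103 UMIs, and 2 cells held 50% of them. Dendritic, T and NK, stromal and Schwann markers had 0 genes tested, with summed levels of at most 56.5 CPM in any of the 4 groups. Ductal markers had 0 of 7 lower and 1 higher, the secreted protein gene Spp1, at 518 and 214 CPM in the richest and poorest CDS cells and at 288 and 203 CPM in the richest and poorest saline cells. For Spp1, 19 of the 698 richest CDS cells and 22 of the 1021 richest saline cells held 50% of the UMIs.

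Mt2 and Hmox1 were highest in the poorest of the 5 groups in both libraries. The metallothionein Mt2 stood at 844 CPM in the richest and 1692 CPM in the poorest CDS cells, and at 385 and 964 CPM in the richest and poorest saline cells. Hmox1, heme oxygenase, stood at 62.8 and 201 CPM in the richest and poorest CDS cells, and at 35.6 and 106 CPM in the richest and poorest saline cells, with 50% of its UMIs held by 31 of the poorest CDS cells and 27 of the poorest saline cells. Against the middle 20% of cells these differences were small, with log2 ratios of 0.078 and -0.12 for Mt2 and of -0.10 and -0.16 for Hmox1 in the CDS and saline libraries. Ddit3, the stress factor CHOP, stood at 104 and 196 CPM in the richest and poorest CDS cells and at 93.2 and 113 CPM in the richest and poorest saline cells, and against the middle it was above 0 at 0.19 and 0.40. In the integrated stress response list 1 of 24 genes was higher (Phgdh, of serine synthesis) and 2 lower (Atf3 and Trib3), beside 4.41% and 16.4% of all genes. Its median log2 ratios were -0.049 in the CDS library and 0.16 in the saline library. Iapp and Ssr4 kept their direction against the middle, with log2 ratios of 0.23 and 0.51 in the CDS library and of 0.32 and 0.51 in the saline library. Of the 417 higher genes, 186 or 44.6% rose at every step over the 5 groups in both libraries, and of the 1550 lower genes 516 or 33.3% fell at every step.

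Further lists are given by their counts, beside 4.41% higher and 16.4% lower among all genes. Interferon and MHC class I genes had 0 of 20 higher and 9 lower, including B2m, but 0 of 18 higher and 1 lower once doublets and cells of other identity were left out, and 0 and 0 against the middle 20%. Immediate early genes had 0 of 21 higher and 5 lower, glycolysis 0 of 14 and 4, and the cell cycle 0 of 10 and 3. Metallothioneins and zinc transport had 1 of 11 higher (Mt3) and 2 lower (Mt1 and Mt2), antioxidant genes 3 of 23 (Prdx2, Prdx5 and Prdx6) and 3, and autophagy genes 3 of 21 and 2. Translation factors had 2 of 26 higher and 0 lower, and cholesterol and fatty acid synthesis 2 of 23 and 1. Dedifferentiation genes had 2 of 9 higher and 4 lower, among them Rbp4, which also marks delta cells, and the acute-phase list had 1 of 8 and 1. Heat shock genes had 0 of 13 and proteasome genes 0 of 24 past the limits.

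Between the libraries, insulin levels follow from the ranking within each and are a description. In CPM, the ratio of CDS over saline was 1.43 for Ins1 and 1.32 for Ins2 in the richest cells, and 1.15 and 1.05 in the poorest. Iapp stood at 128224 CPM in the richest CDS cells and 88949 CPM in the richest saline cells. Some genes of the richest cells were lower in the CDS library, as Ucn3 at 107 CPM against 146 CPM in the saline library, and others higher, as Ssr4 at 1368 CPM against 791 CPM. For oxidative phosphorylation the gap between libraries exceeded that between groups, since the sum of 17591 CPM in the poorest CDS cells lay above the 13172 CPM of the richest saline cells. The libraries differ in depth and in the share of long genes as well as in treatment, and with 1 library each these cannot be told apart.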

How the data were processed

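The deposited matrices hold raw UMI counts per gene and barcode, with no normalization by the authors. Per the submitters' processing notes, Cell Ranger 7.1, Seurat 4, edgeR and build mm10 were used; the matrix header names Cell Ranger 7.1.0. The sources used here do not give the annotation, intron counting or strand use, and the protocol names both v3.1 and v2 chemistry.

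Beta cells were ranked by insulin share within each library. In each 20% group UMIs were summed and scaled to CPM without Ins1 and Ins2. Ratios carry exact conditional Poisson intervals and shares exact Clopper-Pearson intervals. No test was run, and genes were counted by their ratio in both libraries. The 43 gene lists, the members and the limits were chosen with earlier results of these data known. Named genes are Iapp, Adra2a, the 12 highest and 12 lowest mean log2 ratios past the limits at 20 CPM or more (without chromosome 18, ribosomal, mitochondrial and marker genes), and up to 3 genes per list with the same sign in both libraries; others named in the text are list members or are said to be outside the rule. Doublets were called with Scrublet in Scanpy 1.11.5 (256 of 6415 CDS barcodes and 614 of 11591 saline barcodes) and kept in the main values. Python 3.11.15, SciPy 1.17.1, edgeR 4.0.16 (TMM) and DESeq2 1.42.0 (size factors) were used. Gene spans came from GENCODE on mm10, which matched 32235 of 32285 genes. The ratio script was tested on simulated data. In all, 25 alternatives were computed.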

Additional observations from a re-analysis of the deposited data

Results flagged for a closer look

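The erythroid marker list had 1 gene tested, Hbb-bs, a beta globin, and its log2 ratio of richest over poorest beta cells went in opposite directions, at 3.24 in the CDS library and -1.74 in the saline library. Hbb-bs stood at 30.4 CPM in the richest and 3.21 CPM in the poorest CDS cells, and at 5.48 and 18.3 CPM in the richest and poorest saline cells. The difference between libraries was not tested.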

How the results depend on the processing

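With 1 library per treatment no test was run, counts and intervals cover counting error only, and rare genes rest on few cells; the causes of the changes below were not tested, apart from those built into an alternative. No paired analysis was possible because each treatment had 1 library and no result comes from a test. Among 25 alternatives, 32 of 37 lists and 96 of 123 named genes never changed the sign of their mean log2 ratio relative to the median of all genes.

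The 417 genes higher and 1550 lower became 714 higher with Iapp and mitochondrially encoded genes out of the denominator, 676 higher with the top and bottom 10%, 256 and 976 with the top and bottom 30%, 67 and 371 against the middle 20%, and 975 and 3743 with no filter on low counts. The CDS library alone gave 674 and 3370, the saline library alone 737 higher, and adjustment by gene span 431 lower. TMM factors gave 1279 and 589, median-of-ratios factors 1360 and 566, and all UMIs in the denominator 5 and 6377.

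The mean log2 ratio of Iapp, 0.76, was above 0 under all 25. It was 0.19 with all UMIs in the denominator, 0.83 without Iapp and mitochondrially encoded genes there, 0.93 with TMM factors, 0.95 with median-of-ratios factors, 1.0 with the top and bottom 10%, 0.62 with 30%, 0.28 against the middle 20%, 0.66 adjusted by span, 0.79 as a mean over cells, 0.79 with cells thinned to one depth, 0.60 ranked within groups of total UMIs, 0.71 ranked by Ins2 alone, 0.73 with stricter cell filters, 0.58 with insulin at least 25%, 0.72 without cells carrying other-type markers and 0.71 without these, doublets and cells with other hormones.

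The Ins1 share of insulin UMIs, 0.984 points higher in the richest cells, reversed to -1.70 points ranked by Ins2 alone (7.12 by Ins1 alone, as both rankings choose on that share), to -0.115 with insulin at least 25% and to -0.518 against the middle 20%. It was 1.94 with the top and bottom 10%, 0.58 with 30%, 0.39 ranked within groups of total UMIs, 1.22 within groups of other UMIs, 1.10 without cells carrying other-type markers, 1.14 with looser cell filters, 0.83 with other hormones under 0.5% and 1.29 without cells at 60% insulin or more.

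The reversals counted in this way follow as mean log2 ratios relative to all genes. Against the middle 20% they were interferon and MHC class I genes 0.17, PP markers 0.075, acinar markers 0.29, Adra2a -0.033, Ctla2a 0.22, Fabp4 0.069, Ero1l 0.073, Atf3 0.23, Ddit3 0.38, Gnai1 0.00064, Mt2 0.064, Mt1 0.22, Bst2 0.30, Ifit1 0.27, Hmgb2 0.073, Ppy 0.060, Fcer1g 0.030 and Ighm 0.021. Without cells carrying other-type markers they were Ctla2a 0.52, Fabp4 0.33, Apoe 0.60, Ifitm3 0.11, Esm1 0.31, Lyz2 0.67, C1qb 0.49, Fcer1g 0.83 and Ighm 0.46. Without these, doublets and cells with other hormones they were PP markers 0.16, Ctla2a 0.49, Fabp4 0.32, Apoe 0.58, Ifitm3 0.25, Gpx3 0.015, Sst 0.33, Ppy 0.32, Esm1 0.28, Lyz2 0.63, C1qb 0.51, Fcer1g 0.85 and Ighm 0.64. With other hormones under 0.5% they were PP markers 0.20, Gpx3 0.0025, Sst 0.26 and Ppy 0.32. Adjusted by span they were ion channels 0.0073, Adra2a -0.089, Acaca 0.021 and Il1r1 0.023. With insulin at least 25% they were interferon and MHC class I genes 0.012 and Adra2a -0.0066. Ranked by Ins2 alone they were Ddit3 0.044, Trib3 0.031 and Ifit1 0.056, ranked by Ins1 alone mt-Nd3 0.049, Il1r1 0.034 and Fxyd6 -0.027, with the top and bottom 10% Ifit1 0.16, and with no filter on low counts ductal markers -0.029. Esm1, Lyz2, C1qb, Fcer1g and Ighm are among the other-type markers that chose the cells left out. Sst and Ppy are among the hormones limited to 0.5%. The changes of these 7 genes under those alternatives are not separate from the choice of cells.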

Other observations

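A small tail of the richest cells had 60% or more of its UMIs from insulin, a limit chosen after seeing the data. It held 67 CDS and 63 saline cells. These cells had few other UMIs, with medians of 9349 in the CDS tail and 16733 in the other richest CDS cells, and of 3344 in the saline tail and 10019.5 in the other richest saline cells. They had medians of 2920 and 4902 genes in the CDS tail and the other richest CDS cells, and of 1602 and 4005 genes in the saline tail and the other richest saline cells. Iapp stood at 159101 and 126008 CPM in the CDS tail and the other richest CDS cells, and at 85466 and 89026 CPM in the saline tail and the other richest saline cells.

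Of 1748 genes with at least 20 UMIs in each group, 15 were at least 2-fold higher in the tail in both libraries and 85 at least 2-fold lower. Dapl1 stood at 240 CPM in the CDS tail and 88.0 CPM in the other richest CDS cells, and at 521 and 42.0 CPM in the saline tail and the other richest saline cells. In the tails, 5 CDS cells and 6 saline cells held 50% of the Dapl1 UMIs, and Trpm5 had 57 CDS and 37 saline UMIs. Trpm5 stood at 75 and 37 CPM in the CDS tail and the other richest CDS cells, and at 168 and 39.7 CPM in the saline tail and the other richest saline cells, and the ER isomerase gene Fkbp11 at 386 and 180 CPM in the CDS tail and the other richest CDS cells, and at 362 and 132 CPM in the saline tail and the other richest saline cells. Dnah12, which codes for a dynein of motile cilia, stood at 117 and 4.15 CPM in the CDS tail and the other richest CDS cells, and at 946 and 14.6 CPM in the saline tail and the other richest saline cells. Its 89 and 209 UMIs in the CDS and saline tails came from 12 and 33 cells, and 1 CDS cell and 7 saline cells held 50% of them. Sugct, a mitochondrial enzyme gene, stood at 51.3 and 13.0 CPM in the CDS tail and the other richest CDS cells, and at 824 and 27.9 CPM in the saline tail and the other richest saline cells. The 15 also held Ddit3, the heat shock gene Hspa1a, and Sst. In the CDS tail and the other richest CDS cells, Ddit3 stood at 221 and 95.8 CPM, Hspa1a at 64.5 and 12.8, and Sst at 525 and 233. In the saline tail and the other richest saline cells they stood at 235 and 90.1, 95.1 and 6.80, and 516 and 225 CPM. For Sst, 1 cell of the CDS tail held 50% of the UMIs. These genes were named after their values were seen, and no cause was tested.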
